A study of Mus musculus with 2 samples.

Results

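The tumor necrosis factor gene Tnf, the genes of its 2 receptors and 6 genes through which TNF signaling reaches cell death were examined in microglia sorted from the brains of sham-operated mice. The 9 genes were taken by name, as the rows of both count tables whose Ensembl identifiers carry the symbols Tnf, Tnfrsf1a, Tnfrsf1b, Fadd, Casp8, Ripk1, Ripk3, Mlkl and Gsdmd, and they are 9 of the 53801 genes listed. The study asked how brain microglia respond to transient focal cerebral ischemia, with sham surgery as the control. The libraries analysed here are the 2 sham libraries, each from 1 mouse, so levels and the difference between 2 animals could be described, and no condition could be compared. Both mice were male, Cx3cr1(CreER/wt) hemizygous and of C57BL/6 background, and their labels call them WT. Tamoxifen was injected intraperitoneally at 75 mg/kg per day for 4 days, and surgery followed 14 days after the first injection at an age of 8 to 10 weeks. The left hemisphere was taken 3 days after surgery, and cells were sorted as CD11c-, Ly6G-, CD11b+ and CD45low. The treatment field of both samples reads none while their titles name sham surgery, and the study's methods give an older age range and both sexes. As a model, the mice have 1 Cx3cr1 allele replaced by the inducible recombinase CreER, which is also made in other cells that use the Cx3cr1 promoter.

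TNF is made as a membrane protein, is cut free at the cell surface, and binds one receptor that carries a death domain (from Tnfrsf1a) and another that does not (from Tnfrsf1b). The death-domain receptor first gathers RIPK1 and ubiquitin ligases and drives NF-kB signaling. When that complex is released from the membrane, FADD and caspase-8 can start apoptosis. Where caspase-8 is blocked, RIPK1 can act through RIPK3, which phosphorylates MLKL, and MLKL permeabilizes the plasma membrane in necroptosis. Gasdermin D, the pore protein of pyroptosis, is cut by inflammatory caspases and under some conditions by caspase-8. Microglia are a main source of TNF in the brain, and these proteins act mostly through cleavage, ubiquitin and phosphorylation, which RNA counts do not measure.

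Library 1 held 23381026 counts on genes and library 2 held 41142609, and 13445 genes had at least 10 counts in both. Levels are given as counts per 1000000 counts on genes (CPM), and the limit set for a count of 0, 3 counts, is 0.128 CPM in library 1 and 0.0729 CPM in library 2. The 10 microglia markers were all counted and summed to 51226 and 47240 CPM, and genes of the sorting antigens CD11b (Itgam, 290 and 131 CPM) and CD45 (Ptprc, 418 and 381 CPM) were present. Library 2 stood apart by RNA of neutrophil genes. The 10 immature neutrophil markers were all past 2-fold higher there (2112 and 34088 CPM summed), 8 of the 9 mature markers were too (3523 and 31667 CPM), and Ly6g, the gene of an antigen the gate excludes, had 15.4 and 211 CPM. The 6 monocyte markers summed to 478 and 517 CPM but moved in both directions. Ly6c2 was past 2-fold higher in library 2, and 2 were lower, F13a1 and Fn1. The 6 border macrophage markers summed to 484 and 273 CPM, with 2 past 2-fold lower, Mrc1 and Cd163, and 0 higher. Basophil or mast cell markers summed to 0.257 and 169 CPM, with Mcpt8, Prss34, Ms4a2 and Fcer1a at 0 in library 1. Summed CPM was 569.9 and 778 for B cell markers, 1.71 and 16.2 for T cell or NK cell markers (Cd3e at 0 in both), 24.0 and 368 for choroid plexus, 225 and 173 for astrocyte, 190.4 and 188 for oligodendrocyte, 2.57 and 4.25 for neuron and 22.03 and 16.8 for endothelial cell markers (Tek at 0 in both). The part of these other cells in the results that follow was not tested, and in bulk libraries fewer cells of a type and less RNA per cell cannot be told apart.

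All 9 genes were counted in both sham libraries, with between 35 and 15765 counts in library 1 and between 147 and 10366 in library 2. At a minimum of 100 counts in both libraries 8 genes were left, Mlkl being the exception. Levels of different genes were compared per length, as CPM per kilobase of the gene's merged exons, except in the search for genes near Tnf, which used CPM. On that scale both TNF receptors, Casp8 and Gsdmd formed an upper group at 55.6 to 177 CPM per kb. Tnf lay below them at 34.1 to 35.9, Ripk3 and Ripk1 at 5.96 to 9.62, Fadd at 1.69 to 3.82 and Mlkl at 0.650 to 1.55 CPM per kb. The median counted gene had 4.33 CPM per kb in library 1 and 2.98 in library 2, so the upper 5 genes and both kinases were above it and Fadd and Mlkl below it in each library.

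**Figure D1:**
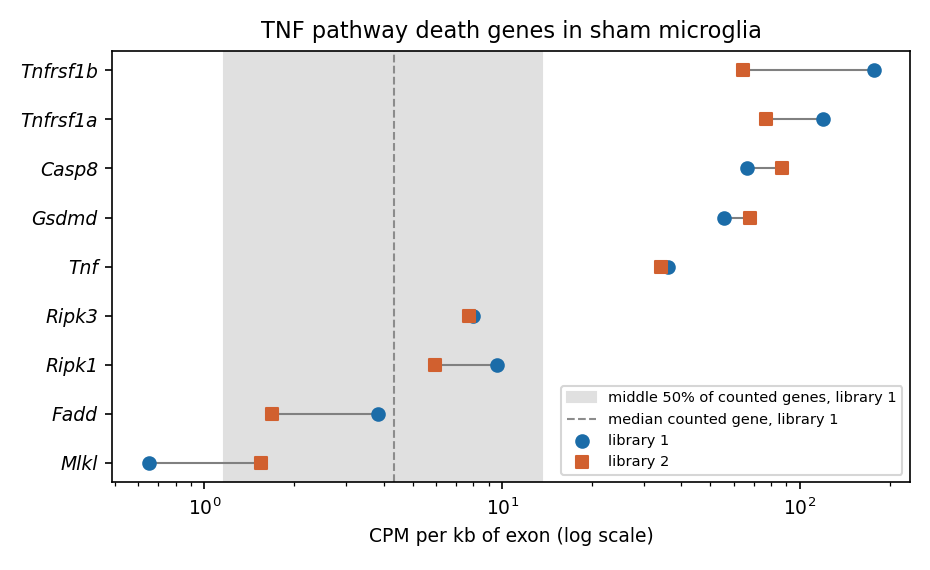
Level of each of the 9 genes in CPM per kb of merged exons (log axis), with a circle for library 1 and a square for library 2, and a grey band for the middle 50% of the 13439 counted genes with a length in library 1 (1.17 to 13.6 CPM per kb, median 4.33 dashed). The upper 5 genes sit to the right of the band in both libraries, Mlkl sits left of it in library 1, and the 2 points of Tnf and of Ripk3 nearly coincide.

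Tnf, the ligand (ENSMUSG00000024401, chromosome 17 of GRCm38, 35199381 to 35202007, minus strand), had 1377 counts in library 1 and 2302 in library 2. These were 58.9 CPM (95% Poisson interval 55.8 to 62.1, counting error only) and 56.0 CPM (53.7 to 58.3), or 57.4 ± 2.08 CPM (SD, n = 2 libraries). The 2 mice did not differ in Tnf beyond counting error on this scale. The level per length was 35.0 ± 1.27 CPM per kb (SD, n = 2), at the 89.7 and 89.0 percentile of counted genes. The study acknowledges that enzymatic digestion of the brain before sorting could change microglial transcription ex vivo. The part of that step in the levels of Tnf and the other genes was not tested. Over both libraries, the genes whose CPM lay closest to that of Tnf were Akap9 (59.0 and 55.7 CPM), Insig2 (58.2 and 55.9 CPM) and Mapkapk3 (59.2 and 56.6 CPM), by Euclidean distance of log2 CPM among the 13445 counted genes. With 2 libraries this likeness covers only CPM, not divided by length, and 1 ratio.

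The 250 bases upstream of the Tnf start are shown because the core promoter of an inducible cytokine is the element its transcripts start from (RefSeq, GRCm38.p6, chr17:35202008-35202257, minus strand, 5′ to 3′, with a TATAAA match in capitals at 29 to 24 bases before the start). The promoters of all members were searched on both strands, in windows of 250 bases before and 50 after the start, for TATAAA, for the GAS element (TTCNNNGAA), the gamma interferon activation site, and for the ISRE element (GAAA, any 2 bases, GAAA) that interferon-regulated complexes bind.
Tnf: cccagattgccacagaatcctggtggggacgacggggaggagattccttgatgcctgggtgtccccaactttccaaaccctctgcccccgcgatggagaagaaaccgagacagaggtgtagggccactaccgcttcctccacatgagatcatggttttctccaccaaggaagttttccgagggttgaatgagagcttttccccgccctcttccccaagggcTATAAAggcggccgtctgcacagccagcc
Windows were found for 8 of the 9 genes, 9 windows in all because Ripk1 has 2 starts, and Tnf was the single member with a TATAAA match. Of all 32851 windows, 13.6% held TATAAA, 8.30% held GAS and 3.44% held ISRE. The Tnf window held neither GAS nor ISRE. A match describes the letters and shows no binding.

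The gene of the death-domain receptor, Tnfrsf1a (ENSMUSG00000030341, chromosome 6, 125349362 to 125362484, plus strand), had 7242 and 8200 counts. Its level was 309.7 CPM in library 1 (303 to 317) and 199 CPM in library 2 (195 to 204), with a mean of 255 ± 78.1 CPM (SD, n = 2). Tnfrsf1b (ENSMUSG00000028599, chromosome 4, 145213463 to 145246870, minus strand), whose protein lacks a death domain, had 15765 and 10121 counts. It stood at 674 CPM (664 to 685) and 246 CPM (241 to 251), with a mean of 460.1 ± 303 CPM (SD, n = 2), the widest spread of the 9 genes in CPM. Both receptors were lower in library 2, and their balance per kb of merged exons turned. On that scale Tnfrsf1b was 1.48-fold Tnfrsf1a in library 1 (1.44 to 1.52) and 0.838-fold in library 2 (0.813 to 0.862). The mean log2 ratio of the receptors was 0.15 ± 0.58 (SD, n = 2), so merged exons gave the receptors no order beyond the spread. With the same counts divided by coding length the log2 ratio was 1.18 in library 1 and 0.36 in library 2, with Tnfrsf1b above Tnfrsf1a in both. Those counts include reads on untranslated exons, so this is not a level over coding exons and does not settle the order.

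Each receptor was above its ligand in both libraries. Tnfrsf1a was 3.33-fold Tnf per kb in library 1 (3.14 to 3.53) and 2.25-fold in library 2 (2.15 to 2.36), and Tnfrsf1b was 4.91-fold and 1.89-fold. The percentiles of Tnfrsf1a were 97.2 and 95.3, and those of Tnfrsf1b 98.2 and 94.3. The Tnfrsf1b promoter is shown because among members with a single start site it was the window that held both interferon-linked elements (RefSeq, GRCm38.p6, chr4:145246871-145247120, minus strand, 5′ to 3′). In capitals are a GAS match, TTCCCGGAA, at 181 to 173 bases before the start, and an ISRE match read on the opposite strand, TTTCGCTTTC, at the last 10 bases.
Tnfrsf1b: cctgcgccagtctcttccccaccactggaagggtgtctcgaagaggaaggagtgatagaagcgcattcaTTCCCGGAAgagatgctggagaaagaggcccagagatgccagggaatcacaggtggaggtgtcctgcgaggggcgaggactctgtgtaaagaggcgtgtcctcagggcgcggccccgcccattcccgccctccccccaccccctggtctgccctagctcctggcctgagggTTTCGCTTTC
Tnfrsf1a held a GAS match 244 to 236 bases before its start. The second start of Ripk1 held a GAS match at 108 to 100 bases and another at 11 to 3 bases before it, with an ISRE match that crosses the start and overlaps the nearer one. The windows of Ripk3, Mlkl, Casp8, Fadd and the first start of Ripk1 held none of the searched letters. Starts here are those of RefSeq. The bases shown or searched before the Tnfrsf1a and Casp8 starts lie inside the gene spans given in this report, downstream of where those spans begin.

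The adaptor gene Fadd (ENSMUSG00000031077, chromosome 7, 144577318 to 144582463, minus strand) links death receptors to caspase-8. It was covered by 349 counts in library 1 and by 271 in library 2, that is 14.9 CPM (13.4 to 16.6) and 6.59 CPM (5.83 to 7.42), with a mean of 10.8 ± 5.90 CPM (SD, n = 2). The exons of Fadd share 239 bases, 6.12% of their length, with those of Faddos on the opposite strand, and whether counting used strand is not given in the sources used here. Casp8 (ENSMUSG00000026029, chromosome 1, 58795374 to 58847503, plus strand), the initiator caspase that FADD recruits, was far more abundant. It had 4481 and 10366 counts, or 192 CPM (186 to 197) and 252 CPM (247 to 257), with a mean of 222 ± 42.6 CPM (SD, n = 2). Fadd was higher in library 1 and Casp8 in library 2, and neither pair of intervals overlapped. Per kb, Casp8 exceeded Fadd 17.3-fold in library 1 (15.5 to 19.4) and 51.6-fold in library 2 (45.7 to 58.4). The log2 ratio was 4.90 ± 1.11 (SD, n = 2), so the caspase was above its adaptor by more than the spread between the mice.

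The 2 kinases of the necroptosis complex lay at like levels per kb of merged exons. Ripk1 (ENSMUSG00000021408, chromosome 13, 34002363 to 34037147, plus strand), the kinase that serves both NF-kB signaling and death, had 1876 and 2046 counts. These were 80.2 CPM (76.6 to 84.0) in library 1 and 49.7 CPM (47.6 to 51.9) in library 2, with a mean of 65.0 ± 21.6 CPM (SD, n = 2). Its exons share 752 bases, 9.01% of their length, with Gm17084 on the same strand and Serpinb6a on the opposite strand. Ripk3 (ENSMUSG00000022221, chromosome 14, 55784995 to 55788865, minus strand), the kinase that acts directly on MLKL, had 427 and 732 counts. The levels of Ripk3 were 18.3 CPM (16.6 to 20.1) and 17.8 CPM (16.5 to 19.1), with a mean of 18.03 ± 0.333 CPM (SD, n = 2), the narrowest spread of the 9 genes. On the CPM scale the libraries did not differ in Ripk3 beyond counting error. Per kb of merged exons Ripk3 was 0.829-fold Ripk1 in library 1 (0.744 to 0.921) and 1.30-fold in library 2 (1.20 to 1.42). The log2 ratio of 0.06 ± 0.46 (SD, n = 2) gives the kinases no order on that scale. Their order also depends on the length used, because the Ripk1 exons run to 8344 bases and its coding exons to 1968. With the same counts divided by coding length, Ripk1 (40.8 and 25.3 CPM per kb) was above Ripk3 (11.7 and 11.4) in both libraries. Those counts include reads on untranslated exons, so this too is not a level over coding exons.

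Of the genes that encode membrane-lytic proteins, Gsdmd was abundant and Mlkl scarce. Gsdmd (ENSMUSG00000022575, chromosome 15, 75862327 to 75867408, plus strand) was covered by 3092 counts in library 1 and by 6656 in library 2, that is 132 CPM (128 to 137) and 162 CPM (158 to 166), with a mean of 147 ± 20.9 CPM (SD, n = 2). Mlkl (ENSMUSG00000012519, chromosome 8, 111311797 to 111338177, minus strand) had 35 and 147 counts, or 1.497 CPM (1.04 to 2.08) and 3.57 CPM (3.02 to 4.20), with a mean of 2.53 ± 1.47 CPM (SD, n = 2). Per kb of merged exons Mlkl was the lowest of the 9 genes in both libraries, while with the longest transcript as length Fadd was lower than Mlkl in library 2 (1.69 and 1.78 CPM per kb). Mlkl was at the 16.1 percentile of counted genes in library 1 and the 36.9 percentile in library 2, while Gsdmd was at 93.5 and 94.7. Per kb, Gsdmd exceeded Mlkl 85.6-fold in library 1 (61.4 to 123) and 43.9-fold in library 2 (37.3 to 52.0). Their log2 ratio was 5.94 ± 0.68 (SD, n = 2), well beyond the spread between the mice. Ripk3, the kinase upstream of MLKL, exceeded Mlkl 12.3-fold (8.68 to 17.8) and 5.003-fold (4.19 to 6.01).

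Ranked by mean CPM per kb, the order was Tnfrsf1b, Tnfrsf1a, Casp8, Gsdmd, Tnf, Ripk3, Ripk1, Fadd and Mlkl. In the upper group each gene overlapped its next neighbor in range, as Ripk3 and Ripk1 did, so the levels of these neighbors did not differ beyond their spread. Within each library, however, Casp8 was above Gsdmd, and Tnfrsf1a and Gsdmd, which are not neighbors, did not overlap. The steps from Gsdmd down to Tnf, from Tnf to Ripk3, from Ripk1 to Fadd and from Fadd to Mlkl had no overlap between the libraries' ranges, although within library 2 Fadd was only 1.09-fold Mlkl per kb (0.887 to 1.34). In library 1 Tnfrsf1b ranked first of the 9, and in library 2 it fell to the lowest place of the upper group, with Casp8 first. Of the 36 pairs of members, 31 had the same order in both mice, and the 5 that turned were Tnfrsf1b with Tnfrsf1a, Casp8 and Gsdmd, Tnfrsf1a with Casp8, and Ripk3 with Ripk1. Some pairs kept nearly 1 ratio. Tnf was 4.51-fold Ripk3 per kb in library 1 and 4.40-fold in library 2, Casp8 was 1.19-fold Gsdmd (1.14 to 1.25) and 1.28-fold (1.24 to 1.32), and Tnfrsf1a was 12.4-fold and 12.9-fold Ripk1.

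The libraries were then compared gene by gene, as library 2 over library 1, which compares 2 mice and covers counting error only. A gene was called where the CPM differed by more than 2-fold. Of the 9 genes 3 were called, beside 31.7% of the 13445 counted genes, which is close to the members' own share. Mlkl was higher in library 2, 2.39-fold (log2 ratio 1.26, interval 0.72 to 1.83), beside 5.74% of genes called higher. Tnfrsf1b was 2.74-fold lower (−1.45, −1.49 to −1.42) and Fadd 2.27-fold lower (−1.18, −1.41 to −0.95), beside 25.9% of genes called lower. The other 6 genes lay within 2-fold. Their log2 ratios were 0.39 for Casp8, 0.29 for Gsdmd, −0.04 for Ripk3, −0.07 for Tnf, −0.64 for Tnfrsf1a and −0.69 for Ripk1. The median over the 9 was −0.07, and over all counted genes −0.26, with the middle 90% between −2.19 and 1.11.

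Scaling moved these ratios by a constant. With TMM library sizes, which shift the median of all genes to −0.01, the Tnf ratio turned from −0.07 to 0.18 and that of Ripk3 from −0.04 to 0.21, and Fadd, at −0.93, was no longer past 2-fold. Then 2 members were called, Mlkl at 1.5 and Tnfrsf1b at −1.20, beside 28.5% of all genes, 8.78% higher and 19.7% lower. The ratios also moved with transcript length across all genes. Over 10 bins of transcript length, the median log2 ratio was −0.04 in the shortest, 0.17 in the third and −1.05 in the longest, so that long transcripts were lower in library 2. The longest transcripts of Tnf, Gsdmd, Ripk3 and Mlkl have at most 2003 bases, that of Tnfrsf1a 2156, that of Casp8 2585, and those of Tnfrsf1b, Fadd and Ripk1 3818, 3903 and 6472. The members did not all follow this trend, as Tnfrsf1a was at −0.64 and, after the adjustment described next, at −0.51. After the median of genes sharing a bin of both GC content and length was subtracted, no member was past 2-fold, beside 22.4% of all genes, 9.7% higher and 12.7% lower. Mlkl stood at 0.97, Tnfrsf1b at −0.62, Fadd at −0.44 and Tnf at −0.26, and the Ripk1 ratio turned to 0.13. Casp8 and Gsdmd were higher and Tnfrsf1a, Tnfrsf1b and Fadd lower in library 2 under each of the CPM, TMM, DESeq2 and adjusted scales, as Mlkl was higher. The share of neutrophil marker genes among all counts was 0.563% in library 1 and 6.58% in library 2. With their genes left out of the totals, the Tnfrsf1b ratio was −1.36, that of Mlkl 1.35 and that of Tnf 0.02, and the part of neutrophil RNA itself in the members' counts was not tested.

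**Figure D2:**
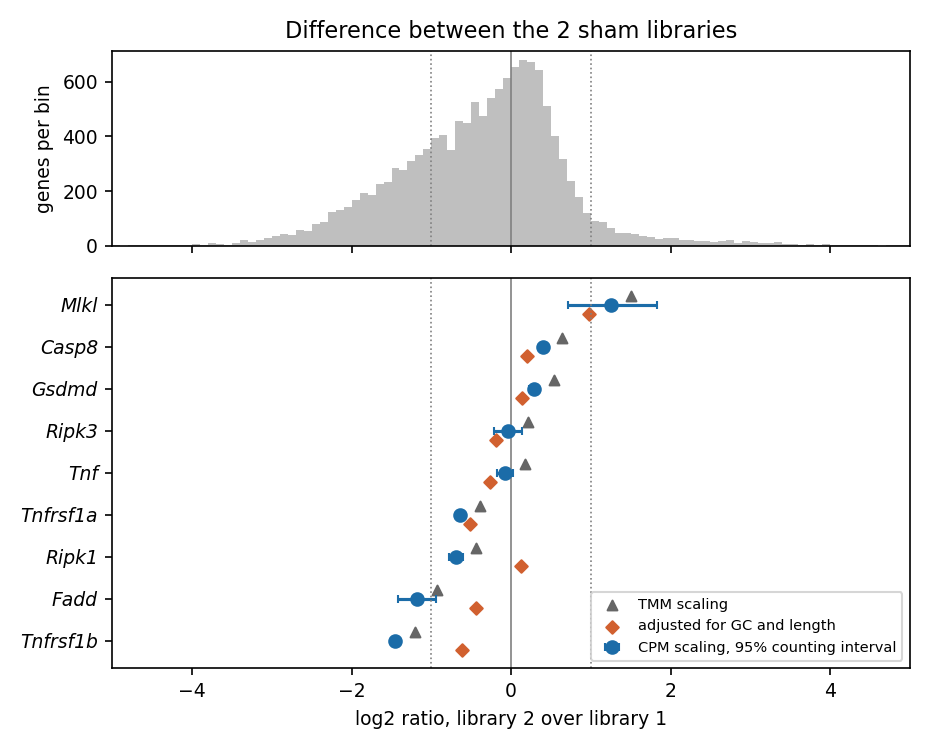
The upper panel counts genes by log2 ratio of CPM (library 2 over library 1), and the lower panel gives the 9 genes on the same axis with 95% counting intervals (circles), with TMM scaling (triangles) and adjusted for GC content and length (diamonds), dotted lines marking 2-fold. Mlkl, Fadd and Tnfrsf1b lie past a dotted line on the CPM scale, Fadd moves inside with TMM, no diamond lies past a line, and Tnf, Ripk3 and Ripk1 lie on different sides of 0 with different scales.

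Around these 9 genes, 48 other genes of TNF release, death signaling and its control were listed by role. Of them 45 were counted in both libraries, 3 were past 2-fold higher in library 2, 13 lower and 29 within. This is 35.6% called, beside 31.7% of all genes, and the median log2 ratio was −0.60 beside −0.26. After the GC and length adjustment the median was −0.02 and 11 genes were past 2-fold, or 24.4% beside 22.4% of all genes, with 5 higher and 6 lower. Of the genes that control TNF release, Adam17, the protease that cuts TNF free, had 272.7 and 114 CPM (log2 ratio −1.26), and Rhbdf2, which brings that protease to the surface, had a log2 ratio of −1.47. Timp3, an inhibitor of the protease, had 3 and 45 counts and was under the count minimum. Of the 3 counted genes of this role 2 were called lower, beside 25.9% of all genes. Both came within 2-fold after the adjustment, at −0.80 for Adam17 and −0.03 for Rhbdf2. The other counted gene, Rhbdf1, went from −0.71 to 1.02, past 2-fold higher, beside 9.7% of all genes higher. The exons of Adam17 overlap Iah1 and those of Timp3 overlap Syn3, each on the opposite strand.

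Among the other death ligands and receptors, the ligand genes Lta and Fasl had 0 counts in both libraries. Tnf was thus the ligand of the death-domain receptor that was detected here, as lymphotoxin alpha, the product of Lta, is the other. Ltb, whose protein forms heterotrimers with lymphotoxin alpha, had 191 and 1148 counts (log2 ratio 1.77), and the death receptor gene Fas had 121 and 623 counts (1.55). Both were called higher in library 2, beside 5.74% of all genes. They were also past 2-fold with TMM, beside 8.78%, and after the adjustment, beside 9.7%. Tnfsf10, the TRAIL gene, had 119 and 94 counts (−1.16), and its receptor gene Tnfrsf10b had 30 and 18 counts (−1.55). Both were called lower, beside 25.9% of all genes, although Tnfsf10 was at −0.91 with TMM.

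All 15 genes of the receptor complex and its kinases were counted, 11 lay within 2-fold and 4 were called lower in library 2, close to the 25.9% of all genes called lower. Tradd, the adaptor of the death-domain receptor, had 10.4 and 14.4 CPM per kb, and Traf2 had 14.8 and 12.6. The ubiquitin ligase genes Birc2 and Birc3 had log2 ratios of −0.04 and 0.04. Of the linear ubiquitin ligase, Sharpin and Rbck1 lay within 2-fold and Rnf31, whose exons overlap Irf9, was called lower at −1.27, or −0.32 after the adjustment. The other 3 called genes encode the TAK1 kinase and its partners, Map3k7 at −2.48, Tab1 at −1.65 and Tab3 at −1.49. After the adjustment Map3k7 (−1.77) and Tab1 (−1.03) were still past 2-fold and Tab3 (−0.97) was not, beside 12.7% of all genes lower. Map3k7 had 847 counts in library 1 and 267 in library 2, a 5.58-fold difference.

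Of the 8 genes listed as brakes on TNF receptor signaling or on death, 5 were called lower in library 2 and none higher. Over all counted genes 25.9% were called lower. The list was chosen with earlier results of these data known, so its counts and median are description and no test. The median log2 ratio of the 8 was −1.35 beside −0.26 over all genes, or −0.45 after the adjustment. Mapkapk2, whose kinase phosphorylates RIPK1 and limits its killing activity, had 4114 counts in library 1 and 437 in library 2 (log2 ratio −4.05, 16.6-fold lower), and −3.44 after the adjustment. Otulin, which removes linear ubiquitin, was at −2.66, and Tnip1, a ubiquitin-binding partner of A20, at −2.69. Those 3 stayed past 2-fold after the adjustment, beside 12.7% of all genes lower on that scale. Spata2 (−1.53) and Tnfaip3, the A20 gene (−1.18), moved to −0.70 and −0.20. The exons of Spata2 overlap Rnf114 on the opposite strand. Cflar, which encodes the caspase-8 inhibitor cFLIP, had 11.1 and 10.2 CPM per kb. It was thus below Casp8 (66.2 and 87.1) and above Fadd (3.82 and 1.69) on the scale per kb in each library.

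Of the 6 apoptosis genes 0 were called, beside 31.7% of all genes. Bid, which caspase-8 cuts to reach the mitochondria, had 41.4 and 43.6 CPM per kb. Its exons share 17.7% of their length with Bcl2l13 on the opposite strand. Casp6, at 0.77, was at 1.02 with TMM and 1.23 after the adjustment, and so past 2-fold there. Over all genes 8.78% were past 2-fold higher with TMM and 9.7% after the adjustment. Zbp1, a sensor that engages RIPK3 without TNF, had 5.56 and 3.21 CPM per kb, and Ticam1, the adaptor that links Toll-like receptors to RIPK3, had 10.8 and 5.46, both within 2-fold between the libraries. Each was above Mlkl (0.650 and 1.55 CPM per kb) in both libraries.

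Of the 7 pyroptosis genes 1 was called, beside 31.7% of all genes in either direction. Gsdme, another gasdermin, was higher in library 2 at 1.14 (2.21-fold), and the other 6 lay within 2-fold. Casp1, the inflammasome caspase that cuts gasdermin D, had 29.3 and 53.6 CPM per kb. Its log2 ratio of 0.87 passed 2-fold with TMM at 1.12, beside 8.78% of all genes higher. Casp4, the caspase that senses cytosolic lipopolysaccharide, had 5.68 and 5.69 CPM per kb. Ninj1, needed for final membrane rupture, had 145 and 143 CPM per kb, the highest level of the 48 genes in each library. It was above Gsdmd (55.6 and 68.1) in each library. Pycard, the inflammasome adaptor, had 43.8 and 35.6 CPM per kb, with exons that overlap Gm45205 on the opposite strand.

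**Figure D3:**
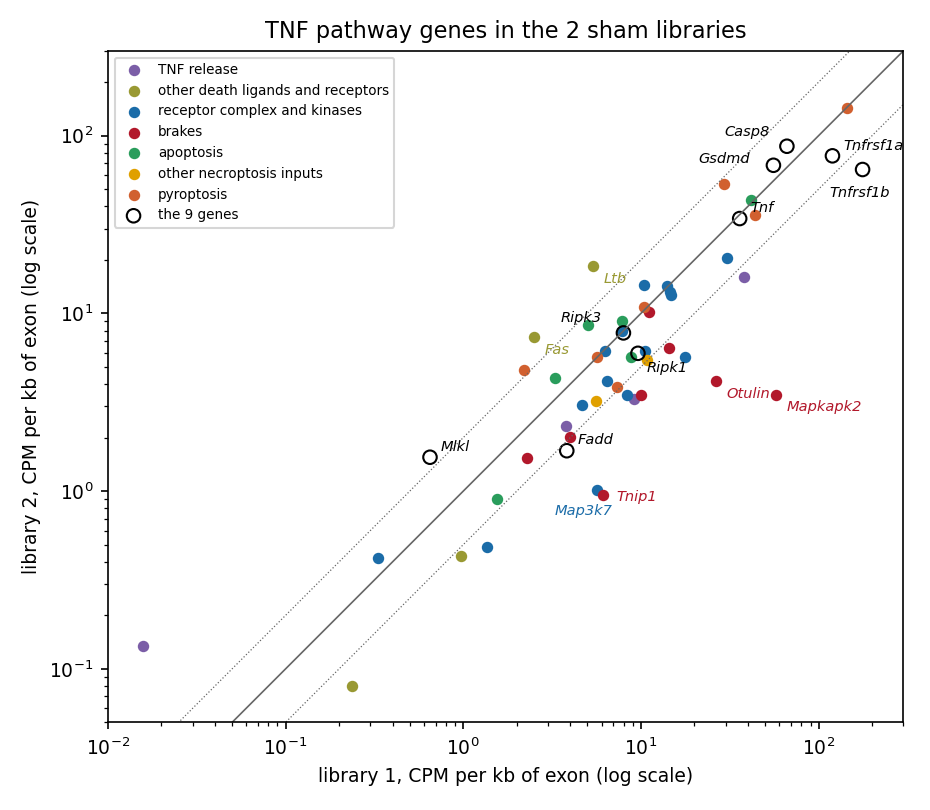
Level in library 2 against library 1, in CPM per kb of merged exons on log axes, for the 9 genes (open circles) and the listed pathway genes with counts in both libraries (filled, colored by role), with the line of equal level and dotted lines at 2-fold. Mapkapk2 (57.9 and 3.49), Otulin (26.3 and 4.16), Map3k7 and Tnip1 lie farthest below the lower dotted line, Ltb and Fas above the upper one, and Tnf and Ripk3 close to the line of equal level.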

How the data were processed

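The authors checked reads with FastQC, mapped them to GRCm38 (HISAT2) and used HTSeq to count reads per Ensembl gene. Raw counts were deposited, with no normalization. Tool versions, annotation release and strand setting are not given in the sources used here. cDNA was made with the SMART-Seq HT Kit and tagmented, so reads carry no strand or molecular identifiers, and intervals and limits cover counting error only. Symbols matched 53620 of 53801 identifiers. CPM was the count over all counts on genes, times 1000000. Exon length and overlap came from GENCODE M21, and deposited starts were shifted to count from 1. A gene was counted with at least 10 counts in both libraries, and called past 2-fold. Intervals were exact Poisson or binomial at 95%. GC and length adjustment used 10 bins each, of the longest transcript. TMM and the spread came from edgeR 4.0.16 and size factors from DESeq2 1.42.0 (R 4.3.3, Python 3.11.15). Calls and adjustment were tested on simulated data.

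Genes named are the 9 members, the pathway and marker lists, the sorting antigens and the 3 genes nearest to Tnf. Members and lists were chosen with earlier results of these data known. The alternatives were other scalings, folds, count minimums, lengths and single libraries. With 1 group there was no test. Some genes of the lists are not reported here.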

Additional observations from a re-analysis of the deposited data

How the results depend on the processing

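No paired analysis was possible because both libraries are of the same group, with no second group to pair. Leaving out either library cannot move a mean of 2 by more than 1 SD, so that setting does not bear on stability. The median log2 ratio of the 9 genes was −0.07, and it was 0.18 with TMM, 0.20 with DESeq2 size factors and −0.19 adjusted for GC content and length. Past 1.5-fold there were 5 members, beside 50.9% of counted genes, and past 3-fold 0 members, beside 15.7%. Of the called genes 18.1% were higher in library 2 with CPM, 30.8% with TMM, 32.7% with DESeq2 size factors and 43.4% after the adjustment. Coding length in place of merged exons moved the mean log2 ratio of Tnfrsf1b over Tnfrsf1a to 0.77, of Ripk3 over Ripk1 to −1.47 and of Casp8 over Fadd to 3.18, and it reversed Ripk3 over Fadd from 1.63 to −0.48, since it changes only the lengths. The same order in both libraries held for 30 of 36 pairs with the longest transcript and 34 with coding length. The biological coefficient of variation between the libraries (edgeR, all genes) was 0.479, and 0.55 with no filter on low counts and 0.278 from DESeq2 dispersions, for which the cause was not tested. CPM levels of all 9 genes moved by less than 1 SD with TMM, DESeq2 size factors or totals without mitochondrially encoded genes, while totals without neutrophil marker genes moved Tnf to 59.6 CPM and Ripk3 to 18.7 CPM.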
